A study of Homo sapiens with 5 samples.

Results

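YAP1, the transcription factor partners TEAD1 and TEAD2, and 5 genes that YAP is known to induce or that restrain it (CYR61, ANKRD1, AXL, LATS2 and AMOTL1) were followed through RNA-seq libraries of MDA-MB-231 cells. The 8 genes were chosen by symbol from the 10576 genes of the deposited table, and each was represented by its transcript row with the highest mean over the 5 libraries. All 8 were found, on 10 transcript rows, because YAP1 and AXL have 2 rows each. MDA-MB-231 is an established cell line from a human triple-negative breast tumour, and it is known to lack a working NF2 gene, an upstream activator of the Hippo kinases.

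The series asked what follows when inhibitors of the phosphatase PP2A are removed or antagonised. SiRNA against SET (siSET), siRNA against CIP2A (siCIP2A) and a control siRNA (siNT) were applied for 48 hours (for siCIP2A the time comes from the treatment protocol alone), and OP449, named in the series as an antagonist of SET, was applied at 1 µM for 12 hours beside a PBS control. All groups share the line and its serum-containing medium, and each is a single library, 1 of 5. Conditions therefore could not be tested against each other, and no difference below has a replicate check. SET and CIP2A themselves were not analysed here, so the labels could not be checked against the silenced genes.

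YAP is a coactivator without a DNA-binding domain of its own. It reaches promoters and enhancers through TEAD proteins, which bind the letters GGAATG and close variants, often beside AP-1 sites. The Hippo kinases LATS1 and LATS2, helped by SAV1 and MOB1A, phosphorylate YAP, which holds it in the cytoplasm or sends it to degradation, and angiomotins such as AMOTL1 also bind it there. Because phosphorylation sets YAP activity, the RNA of YAP1 does not measure it, and target genes are commonly read instead. In breast cancer cells active YAP is associated with growth, invasion and loss of contact inhibition.

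The values are scaled counts, a signal per transcript that the authors put on a common scale. Each library held 3639530 to 5599350 recovered reads over the gene table, with siSET the shallowest. The median log2 fold of all genes lay between -0.00 and 0.02 in the 4 comparisons made. The mesenchymal marker VIM stood at 15670 to 20867 scaled counts and CD44 at 13820 to 20560. The keratin genes KRT8 and KRT18 stood at 3436 to 4793 and 2032 to 2965. The other epithelial markers, EPCAM and CDH1, stood at 139 to 282 and 12.9 to 56.7. ERBB2 stood at 1049 to 1179, and the progesterone receptor gene PGR was at 0 in all 5 libraries. Of markers for other cell types, the leukocyte genes PTPRC and CD3E had at most 2 reads and the endothelial gene PECAM1 at most 7. COL1A1 was the exception, at 73.7 to 162 scaled counts. The summed level of the 4 measured markers of other cells was 108 in siSET, 88.3 in siCIP2A, 171 in siNT, 95.3 in OP449 and 78.2 in PBS, and its part in the results was not tested.

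Target promoters are shown first, because the readout below turns on genes that YAP and TEAD reach through DNA. Of the 8 genes, 6 had an entry in the RefSeq promoter table on GRCh38.p14. TEAD1 and CYR61 had none. The 4 promoters printed belong to the target genes that differed most between OP449 and PBS among those with an entry, 3 lower (ANKRD1, TGFB2 and DKK1) and 1 higher (THBS1). They were chosen after their values were seen. Each run is the 250 bases before the transcription start, read 5′ to 3′ on the gene's strand, and capitals mark GGAATG or its reverse complement CATTCC and the AP-1 letters TGANTCA.
ANKRD1, chr10:90921088-90921337, minus strand: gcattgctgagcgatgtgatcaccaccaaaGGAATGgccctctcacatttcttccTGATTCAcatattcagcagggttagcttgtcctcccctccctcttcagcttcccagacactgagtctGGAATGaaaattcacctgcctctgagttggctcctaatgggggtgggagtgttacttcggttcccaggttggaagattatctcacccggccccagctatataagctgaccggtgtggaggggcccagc
TGFB2, chr1:218345086-218345335, plus strand: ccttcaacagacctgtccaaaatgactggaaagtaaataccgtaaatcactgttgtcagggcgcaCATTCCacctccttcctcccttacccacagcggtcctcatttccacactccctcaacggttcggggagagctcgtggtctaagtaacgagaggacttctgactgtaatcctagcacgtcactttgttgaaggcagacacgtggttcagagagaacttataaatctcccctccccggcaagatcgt
DKK1, chr10:52314031-52314280, plus strand: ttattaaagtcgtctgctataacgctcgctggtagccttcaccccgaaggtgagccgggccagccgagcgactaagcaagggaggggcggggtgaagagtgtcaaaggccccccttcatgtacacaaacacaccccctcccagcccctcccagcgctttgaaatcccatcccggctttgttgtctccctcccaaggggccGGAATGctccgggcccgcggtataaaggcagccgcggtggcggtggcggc
THBS1, chr15:39580829-39581078, plus strand: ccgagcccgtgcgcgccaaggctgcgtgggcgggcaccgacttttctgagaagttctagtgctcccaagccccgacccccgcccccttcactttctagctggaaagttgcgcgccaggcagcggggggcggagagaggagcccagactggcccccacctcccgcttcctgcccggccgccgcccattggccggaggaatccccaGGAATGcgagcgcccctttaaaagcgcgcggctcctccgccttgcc

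The ANKRD1 promoter holds GGAATG at 220 and at 128 bases before the start, and TGATTCA, a form of TGANTCA, at 195 bases before it. The TGFB2 promoter holds CATTCC at 185 bases, the DKK1 promoter GGAATG at 50 bases and the THBS1 promoter GGAATG at 46 bases. On either strand GGAATG occurs in 11.9% of the 35116 promoter windows of this length, TGANTCA in 6.57% and both in 1.06%. The motifs share no overlap in these 4 windows. Among the 6 genes with an entry, YAP1, ANKRD1 and AXL had a TEAD match, AXL in 1 of its 2 windows, and ANKRD1 an AP-1 match. On the wider lists of target genes described further on, 3 of 6 conserved targets with an entry had a TEAD match (PTPN14, NUAK2 and TGFB2) and 2 of 3 other targets did (THBS1 and DKK1). MYOF, F3, FJX1 and CDC42EP3 had no TEAD match. On those lists only F3 had an AP-1 match, at 223 and at 210 bases before the start. These counts are per gene, some with several windows, and the shares over all promoters are per window. A match is a string of letters and was not tested as a binding site, and no match says nothing of sites outside the window.

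The 8 genes differed in level. Per kilobase of transcript, CYR61, a secreted matrix protein that engages integrins, had the highest mean at 5128 scaled counts per kb. AXL, a receptor tyrosine kinase tied to invasion, followed at 3531 per kb, then TEAD1 at 1434, ANKRD1 at 1224 and YAP1 at 611. AMOTL1 stood at 286 per kb, TEAD2 at 124 and the kinase gene LATS2 at 98.9. TEAD1 and ANKRD1 overlapped across libraries, at 1108 to 1748 and 726 to 1518 per kb, and so did TEAD2 and LATS2, at 105 to 152 and 90.7 to 113. The positions of YAP1 and AXL rest on which transcript length is used. The second rows gave means of 1358 per kb for YAP1 and 5217 per kb for AXL, because nearly or exactly the same reads were set against a shorter transcript.

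YAP1 (chromosome 11, 101981210 to 102104154, plus strand, hg19, as all gene positions below) was lowest in the control siRNA library. It stood at 3343 scaled counts in siSET, 3429 in siCIP2A and 2595 in siNT, and at 3724 in OP449 and 3354 in PBS. By counting error siCIP2A could not be told apart from PBS, nor siSET from PBS, whereas siNT lay below all of them. The log2 fold was 0.36 [0.28 to 0.45] for siSET against siNT and 0.40 [0.32 to 0.48] for siCIP2A against siNT, where brackets give the 95% exact interval that counting error alone allows. Those 2 folds share the siNT library. Against PBS they were -0.00 [-0.09 to 0.08] and 0.03 [-0.04 to 0.10]. For OP449 against PBS the log2 fold of YAP1 was 0.15 [0.08 to 0.23].

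TEAD1 (chromosome 11, 12695969 to 12966298, plus strand) is the more abundant of the TEAD1 and TEAD2 pair per kilobase, as given above. It stood at 4448 scaled counts in siSET, 3800 in siCIP2A and 2819 in siNT, and at 3557 in OP449 and 3616 in PBS. It was highest in siSET and lowest in siNT. For siSET against siNT the fold was 1.58, a log2 fold of 0.66 [0.58 to 0.74], higher than that of 98.0% of the 6081 genes compared. Against PBS siSET was still higher, at 0.30 [0.22 to 0.37]. For siCIP2A the log2 fold was 0.43 [0.35 to 0.51] against siNT and 0.07 [0.00 to 0.14] against PBS. The OP449 and PBS libraries could not be told apart for TEAD1, at -0.02 [-0.10 to 0.05].

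TEAD2 (chromosome 19, 49843857 to 49865714, minus strand) was low, at 267 scaled counts in siSET, 227 in siCIP2A and 254 in siNT, and at 330 in OP449 and 268 in PBS, from 156 to 256 reads. Its interval excluded 0 for OP449 against PBS, at 0.30 [0.04 to 0.56], and for no other of the 4 comparisons. TEAD4, a further TEAD gene outside the 8, stood at 154 scaled counts in siSET, 162 in siCIP2A, 145 in siNT, 165 in OP449 and 166 in PBS. All of its intervals for the 4 comparisons held 0. TEAD3 and WWTR1, listed beside TEAD4, were absent from the table.

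**Figure D1:**
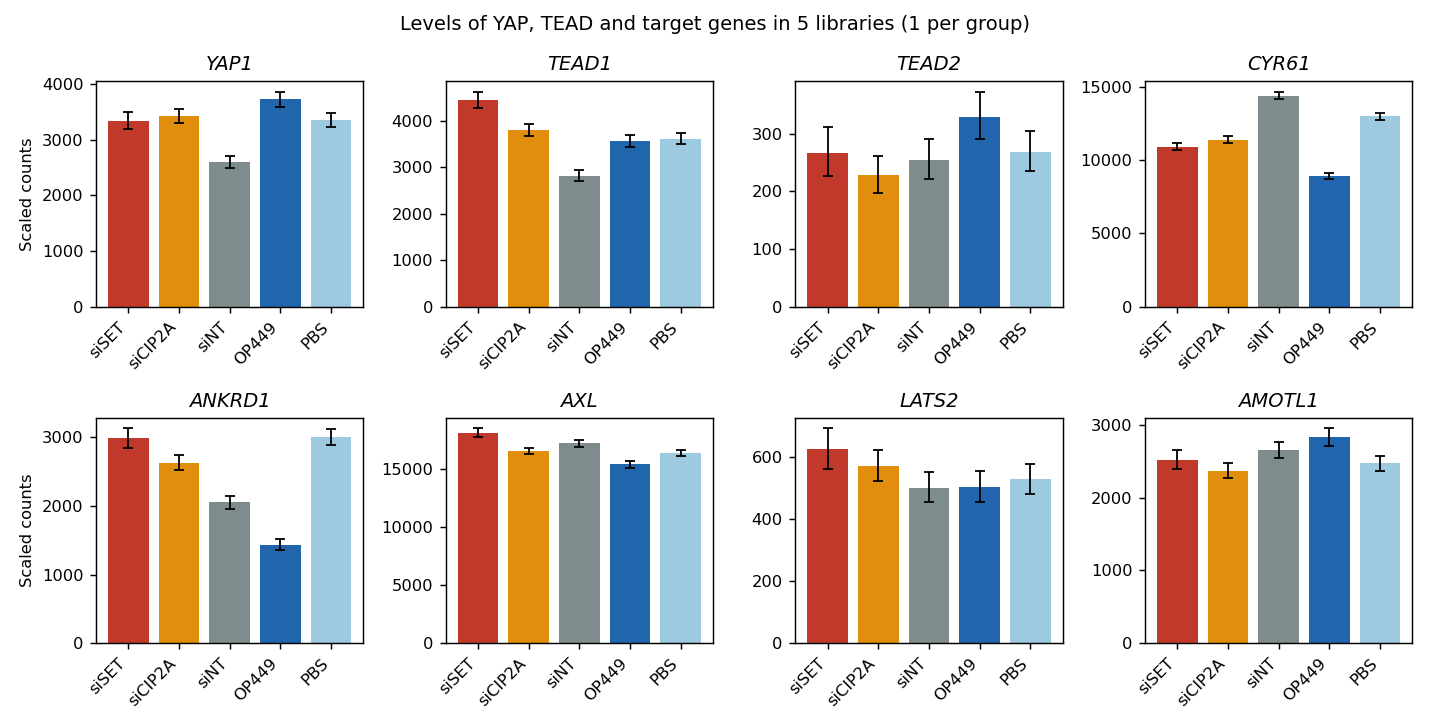
Scaled counts of the 8 genes (y axis, from 0) in the siSET, siCIP2A, siNT, OP449 and PBS libraries (x axis, 1 library each), with bars for the level and lines for 95% exact Poisson counting intervals. ANKRD1 and CYR61 were lowest in OP449, at 1436 and 8902 scaled counts, and YAP1 and TEAD1 were lowest in siNT, at 2595 and 2819.

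ANKRD1 (chromosome 10, 92671857 to 92681032, minus strand) encodes a nuclear ankyrin repeat protein and is among the most used YAP target genes. It showed the widest spread of the 8, 2.09-fold between its highest and lowest library. The level was 2985 scaled counts in siSET, 2630 in siCIP2A and 2053 in siNT, and 1436 in OP449 and 3004 in PBS. OP449 was the lowest and siNT the next, while siSET and PBS could not be told apart. OP449, with 1115 reads, was 2.09-fold below PBS, with 2650 reads. The log2 fold of -1.06 [-1.17 to -0.96] was the 13th lowest of 6093 genes. This was the only gene of the 8 to differ at least 2-fold in any of the 4 comparisons. Among all genes compared, 0.295% were at least 2-fold lower in OP449 and 0.591% differed 2-fold in either direction.

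In the siRNA libraries ANKRD1 went the other way against siNT. The log2 fold was 0.54 [0.44 to 0.64] in siSET and 0.36 [0.27 to 0.45] in siCIP2A. siNT itself stood below PBS, at -0.55 [-0.64 to -0.46], with 1.86% of the 6073 genes lower. Against PBS siSET was at -0.01 [-0.10 to 0.08] and siCIP2A at -0.19 [-0.27 to -0.11]. A direction for ANKRD1 in the siRNA libraries therefore hangs on which control is used. The siNT and PBS libraries differ both in siRNA and in time, and these cannot be told apart.

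CYR61 (chromosome 1, 86046444 to 86049646, plus strand) was lower in all 3 treated libraries than in either control. It stood at 10946 scaled counts in siSET, 11425 in siCIP2A and 14435 in siNT, and at 8902 in OP449 and 13011 in PBS. Among the treated libraries, PBS is matched in time to OP449 only. Every neighbouring pair in the order siNT, PBS, siCIP2A, siSET, OP449 differed by more than counting error. The log2 fold was -0.55 [-0.59 to -0.50] for OP449 against PBS, from 6910 and 11478 reads, with 2.05% of the 6093 genes lower. It was -0.40 for siSET and -0.34 for siCIP2A against siNT, and -0.25 [-0.29 to -0.21] and -0.19 [-0.23 to -0.15] against PBS. In OP449 CYR61 and ANKRD1 were both low, but in siSET and siCIP2A they lay on opposite sides of siNT. That contrast rests on siNT. Against PBS both were lower in siCIP2A, with ANKRD1 at -0.19 [-0.27 to -0.11]. In siSET ANKRD1 could not be told apart from PBS, at -0.01 [-0.10 to 0.08]. CYR61 is also an immediate early gene.

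AXL (chromosome 19, 41725108 to 41767670, plus strand) was the steadiest of the 8. It stood at 18128 scaled counts in siSET, 16570 in siCIP2A and 17203 in siNT, and at 15393 in OP449 and 16332 in PBS, a spread of 1.18-fold from the lowest to the highest library. With 10597 to 15006 reads per library the counting intervals were narrow, so small differences exceeded counting error. The log2 fold was 0.08 [0.04 to 0.11] for siSET and -0.05 [-0.09 to -0.02] for siCIP2A against siNT, and -0.09 [-0.12 to -0.05] for OP449 against PBS. The controls siNT and PBS differed by an amount in the same range, 0.07 [0.04 to 0.11]. Against PBS the log2 fold of AXL was 0.15 [0.11 to 0.19] for siSET and 0.02 [-0.01 to 0.05] for siCIP2A.

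LATS2 (chromosome 13, 21547178 to 21635722, minus strand) is both a YAP kinase and a YAP target, part of a known negative feedback. It stood at 624 scaled counts in siSET, 570 in siCIP2A and 500.1 in siNT, and at 502 in OP449 and 528 in PBS. siSET lay above both controls, at 0.32 [0.11 to 0.53] against siNT and 0.24 [0.04 to 0.44] against PBS, but could not be told apart from siCIP2A, at 0.13 [-0.07 to 0.33]. The intervals of the other comparisons, siCIP2A at 0.19 [-0.00 to 0.38], OP449 at -0.07 [-0.27 to 0.12] and siNT against PBS at -0.08 [-0.27 to 0.11], held 0. AMOTL1, the angiomotin gene among the 8 (chromosome 11, 94501508 to 94609917, plus strand), stood at 2518 scaled counts in siSET, 2373 in siCIP2A and 2649.9 in siNT, and at 2830.4 in OP449 and 2473 in PBS. OP449 was the highest, at 0.19 [0.11 to 0.28] against PBS, and siCIP2A the lowest, at -0.16 [-0.25 to -0.07] against siNT. Against PBS siCIP2A was at -0.06 [-0.15 to 0.03] for AMOTL1, so those libraries could not be told apart.

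**Figure D2:**
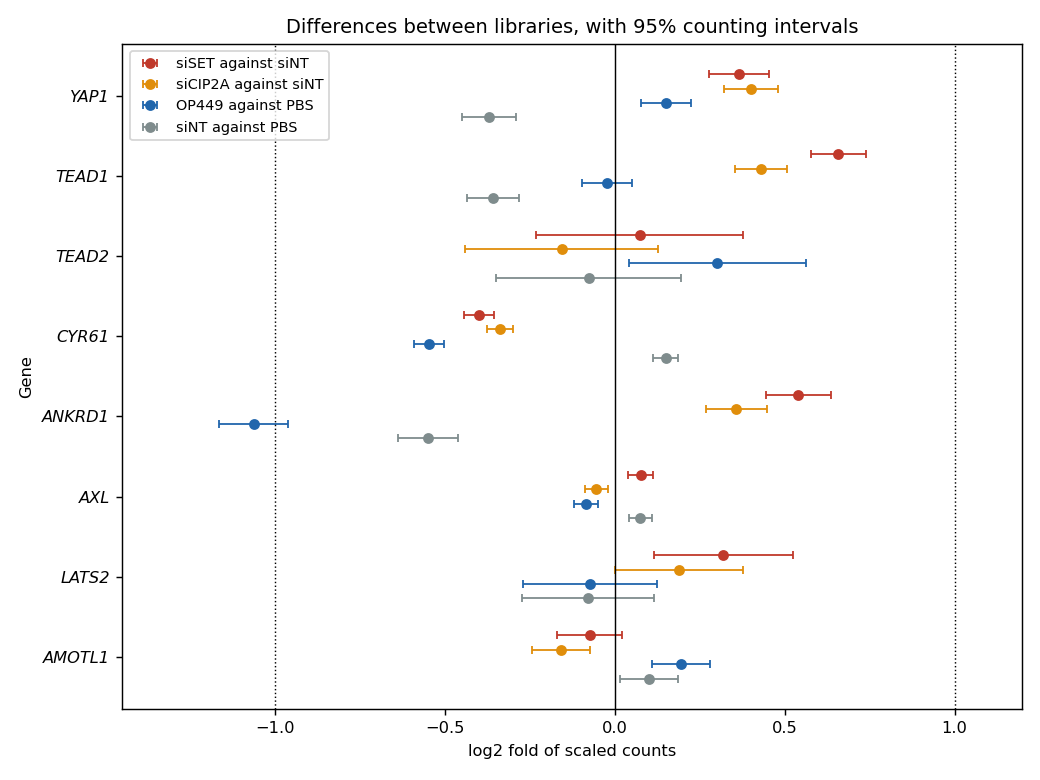
Log2 fold of scaled counts (x axis) of the 8 genes (y axis) for siSET and siCIP2A against siNT, OP449 against PBS and siNT against PBS, with lines for 95% counting intervals and dotted lines at a fold of 2. ANKRD1 in OP449, at -1.06, is the only point past a dotted line. YAP1, TEAD1 and ANKRD1 lie left of 0 for siNT against PBS but right of 0 for both siRNA comparisons. Those comparisons all share the siNT library, so a low siNT value by itself sets opposite signs.

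Counted together, 6 of the 8 genes had an interval that excluded 0 for siSET against siNT, 5 higher and 1 lower. The same held for 39.5% of the 6081 genes compared, 19.8% higher and 19.8% lower, and for 67.9% of the 672 genes with a mean of at least 2000 scaled counts, a level that 6 of the 8 genes reach. For siCIP2A against siNT 3 genes were higher and 3 lower by that rule, which 41.5% of 6099 genes met, 21.3% higher and 20.2% lower, and 69% of the 680 abundant ones. For OP449 against PBS 3 were higher and 3 lower, against 36.3% of 6093 genes, 19.3% higher and 16.9% lower, and 63.9% of the 676 abundant ones. For siNT against PBS 3 were higher (CYR61, AXL and AMOTL1) and 3 lower (YAP1, TEAD1 and ANKRD1), against 35.4% of 6073 genes, 17.7% on each side, and 68.4% of the 677 abundant ones. The intervals narrow with read number, and the shares of abundant genes apply to the abundant genes among the 8. Of the 6 genes with a mean of at least 2000 scaled counts, 5 had an interval that excluded 0 for siSET against siNT, 6 for siCIP2A against siNT, 5 for OP449 against PBS and 6 for siNT against PBS. With PBS in place of siNT, 3 of the 6 did for siSET, beside 66.2% of abundant genes, and 3 of the 6 for siCIP2A, beside 74.3%.

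The median log2 fold of the 8 genes was 0.20 for siSET, beside 0.01 for all genes, and 0.07 for siCIP2A, beside 0.02. It was -0.05 for OP449, beside 0.02, and -0.08 for siNT against PBS, beside -0.00. Folds lay above 0 for 6, 4, 3 and 3 of the 8 genes in these comparisons, and for 52.1%, 52.7%, 53.7% and 49% of all genes. None of the 8 genes differed at least 2-fold for siSET against siNT, siCIP2A against siNT or siNT against PBS, where 1.18%, 1.11% and 0.395% of all genes did in either direction. These are bulk libraries, in which a lower level cannot be told apart from fewer cells that express the gene.

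**Figure D3:**
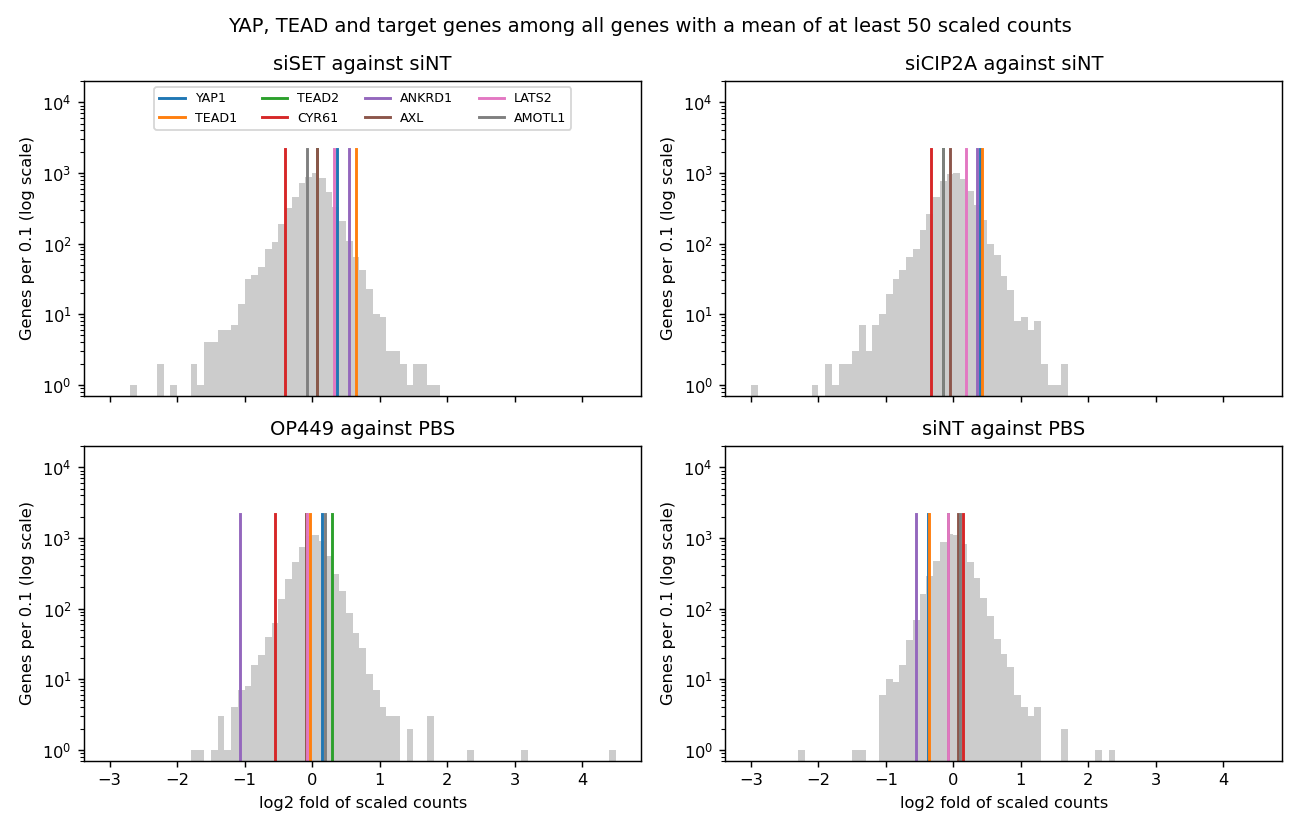
Number of genes per 0.1 of log2 fold (y axis, log scale) against log2 fold (x axis) in 4 comparisons, over genes with a mean of at least 50 scaled counts, with a coloured line for each of the 8 genes. ANKRD1 stands in the far lower tail for OP449 against PBS, at -1.06, while AXL lies near the centre of all 4 panels.

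A wider set of conserved YAP target genes was split in siSET, siCIP2A and siNT, and most stood lower in OP449. Of 18 listed, 9 were in the table and all 9 passed the floor of 50 scaled counts. CTGF and AMOTL2 were among the listed genes absent from it. In OP449, 7 of these were below PBS and 2 above, 6 and 2 with an interval that excluded 0, and their median was -0.18, beside 0.02 for all genes. Among all genes compared, the interval lay below 0 for 16.9% and above 0 for 19.3%, and 53.7% had a fold above 0. For genes with a mean of at least 2000 scaled counts, as MYOF, F3, CRIM1 and PTPN14 had, 63.9% of intervals excluded 0 on either side. TGFB2, a TGF-beta ligand, stood at 1188 scaled counts in OP449 against 2480 in PBS, a log2 fold of -1.06 [-1.17 to -0.95] that was past 2-fold. The tissue factor gene F3, the start of the coagulation cascade, and PTPN14, a phosphatase that holds YAP in the cytoplasm, were the 2 above PBS (PTPN14 also stands on the list of YAP-binding genes), at 0.24 [0.19 to 0.29] and 0.16 [0.08 to 0.23]. The growth arrest gene GADD45A stood at -0.18 and the kinase gene NUAK2 at -0.22 [-0.58 to 0.13].

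In siSET 4 of the 9 conserved targets were above siNT and 5 below, with a median of -0.04. MYOF, a membrane repair gene, stood at 2270 scaled counts against 7779 in siNT and was the only gene of the list past 2-fold there. In either direction, 1.18% of all genes compared were past 2-fold. F3 was lower, at -0.39 [-0.44 to -0.34] against siNT, but higher than PBS, at 0.19 [0.13 to 0.25]. TGFB2 was higher than both controls in siSET, at 0.27 [0.17 to 0.37] against siNT and 0.15 [0.05 to 0.24] against PBS. In siCIP2A 4 of 9 were above siNT and 5 below, with a median of -0.06. MYOF was higher there, at 8996 scaled counts against 7779, and TGFB2 was lower, at 1214 against 2280. GADD45A stood at 0.44 [0.27 to 0.61] against siNT. For siNT against PBS 4 of 9 were above and 5 below, with a median of -0.09. Beside these, 52.1% of all genes were above siNT in siSET and 52.7% in siCIP2A, and 49% were above PBS in siNT. The medians of all genes were 0.01, 0.02 and -0.00 in turn.

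Of 7 measured genes on a second list of reported targets, 4 were above PBS and 3 below in OP449, with a median of 0.02, equal to that of all genes. DKK1, a secreted Wnt inhibitor, stood at 1890 scaled counts in OP449 against 3138 in PBS, a log2 fold of -0.73 [-0.82 to -0.64]. THBS1, the matrix protein thrombospondin, went the other way, at 21522 against 15578. FOSL1, an AP-1 subunit, was higher too, at 0.23 [0.17 to 0.29]. BIRC5, an apoptosis inhibitor expressed in mitosis, was below PBS in OP449, at -0.15 [-0.25 to -0.05], and in siNT, at -0.38. In siSET 2 of the 7 were above siNT and 5 below, with DKK1 at 0.46 [0.38 to 0.54]. In siCIP2A 3 were above and 4 below. THBS1 stood there at 11644 scaled counts against 23088 in siNT and 15578 in PBS, a log2 fold of -0.99 [-1.02 to -0.95] against siNT. The other named genes of the list were closer to siNT in siCIP2A, with DKK1 at -0.31 [-0.40 to -0.23], CDC42EP3, an effector of the GTPase CDC42, at -0.28 [-0.37 to -0.20] and the TWEAK receptor gene TNFRSF12A at 0.04 [-0.07 to 0.14]. For siNT against PBS 4 were above and 3 below, with a median of 0.06, beside -0.00 for all genes. Among all genes the fold was above 0 for 53.7% in OP449, 52.1% in siSET, 52.7% in siCIP2A and 49% in siNT.

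Genes controlled by SRF and its actin-sensing cofactors were listed because ANKRD1 and CYR61 respond to both systems. Of 14 listed, 9 were in the table and 6 passed the floor in OP449 and PBS. Of these 6, 5 were below PBS, and for 4 the whole interval was. Over all genes compared, 16.9% had the whole interval below 0 and 53.7% a fold above 0. For genes with a mean of at least 2000 scaled counts, as 4 of these 6 had, 63.9% of intervals excluded 0 on either side. The median of the 6 was -0.27, beside 0.02 for all genes. CNN2, an actin-binding calponin, stood at 2262 scaled counts in OP449 against 3428 in PBS, a log2 fold of -0.60 [-0.69 to -0.51]. The focal adhesion gene VCL was at -0.29 [-0.34 to -0.23], the tropomyosin gene TPM1 at -0.28 [-0.45 to -0.11] and the actin crosslinker ACTN1 at -0.25 [-0.31 to -0.20]. TPM4, counted among the 5, was at -0.00 [-0.05 to 0.05], and FHL2 was the 1 above, at 0.14 [-0.02 to 0.30]. Under the floor, ACTA2 and TAGLN were above PBS in OP449, at 0.48 [-0.20 to 1.19] and 0.36 [-0.31 to 1.05]. Both of those intervals held 0, and CNN1 had 0 reads in both libraries. In siSET 3 of 6 were above siNT and 3 below, with TPM1 at 0.48 [0.33 to 0.64]. In siCIP2A 3 of 7 were above and 4 below, with TAGLN at 0.72 [0.10 to 1.40] from low levels of 65.1 scaled counts against 39.1 in siNT. In siNT 5 of 6 were above PBS, none with an interval that excluded 0. By comparison, 52.1% of all genes were above siNT in siSET and 52.7% in siCIP2A, and 49% were above PBS in siNT.

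The Hippo kinase arm had 11 of 17 listed genes in the table, 10 of them past the floor. LATS1, STK3, STK4, MOB1B, NF2 and WWC1 were absent from it. In siSET 5 were above siNT and 5 below, with a median of -0.05. MAP4K4, a kinase that can phosphorylate LATS kinases, stood at 3464 scaled counts in siSET against 8629 in siNT, a log2 fold of -1.32 [-1.39 to -1.25], and 6193 in PBS, at -0.84 [-0.91 to -0.76]. FRMD6, a FERM-domain protein upstream of the kinases, stood at 2848 in siSET against 1814 in siNT and 1894 in PBS. In siCIP2A 3 were above siNT and 7 below. MAP4K4 was at 6161 scaled counts there, close to PBS at -0.01 [-0.06 to 0.05], and the scaffold gene SAV1 at 0.38 [0.24 to 0.53] against siNT. In OP449 5 were above PBS and 5 below, with the kinase gene TAOK1 at 0.63 [0.43 to 0.83] and SAV1 at -0.33 [-0.50 to -0.16]. TAOK1 was as far above PBS in siNT, at 0.61 [0.42 to 0.81]. There 8 of the 10 were above PBS, 4 of them with the whole interval, and the median was 0.12. Over all genes compared, 49% were above PBS in siNT, 17.7% with the whole interval, and the median was -0.00. The shares of all genes above the control were 52.1% in siSET, 52.7% in siCIP2A and 53.7% in OP449. MAP4K2 stood at -0.20 [-0.52 to 0.11] in OP449 and MAP4K3 at 0.18 [-0.04 to 0.41].

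**Figure D4:**
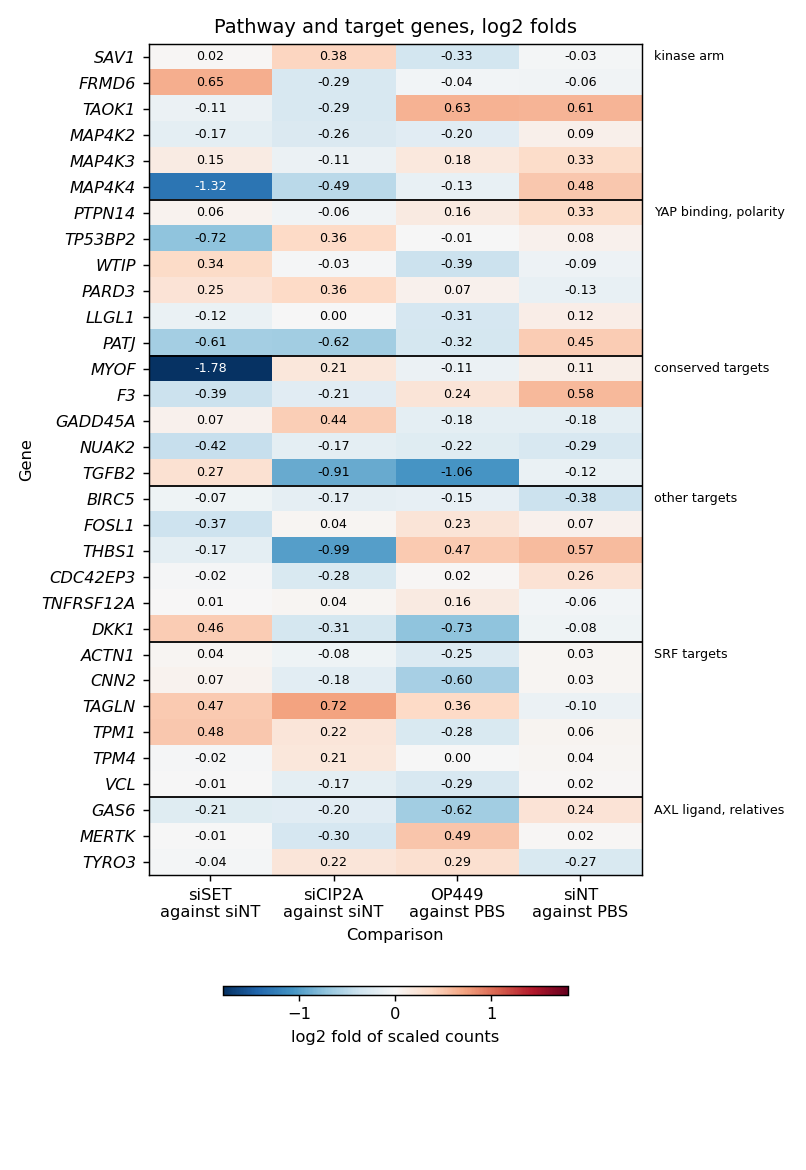
Log2 fold of scaled counts (colour and number) of the pathway and target genes named by rule (rows, grouped by list) in 4 comparisons (columns). The lowest values are MYOF at -1.78, MAP4K4 at -1.32, TP53BP2 at -0.72 and PATJ at -0.61 in siSET, THBS1 at -0.99, TGFB2 at -0.91 and PATJ at -0.62 in siCIP2A, and TGFB2 at -1.06, DKK1 at -0.73, GAS6 at -0.62 and CNN2 at -0.60 in OP449.

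AXL differed little between libraries, while its ligand gene differed more for OP449 against PBS and for both siRNA libraries against siNT. For siSET against PBS it was AXL that differed more, at 0.15 [0.11 to 0.19]. Of 4 genes listed as AXL ligands and relatives, 3 were in the table. GAS6, which encodes the AXL ligand, stood at 2587 scaled counts in OP449 against 3989 in PBS, a log2 fold of -0.62 [-0.70 to -0.55]. In siSET and siCIP2A it was at -0.21 [-0.29 to -0.14] and -0.20 [-0.26 to -0.13] against siNT, but at 0.03 [-0.04 to 0.11] and 0.05 [-0.02 to 0.11] against PBS. The related receptor genes TYRO3 and MERTK were low. TYRO3 stood at 410 scaled counts in OP449 against 334 in PBS, and MERTK at 179 against 127.

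Genes with the most similar profile over the 5 libraries were sought by the Euclidean distance between centred log2 values, among 6089 other genes with a mean of at least 50 scaled counts. For CYR61 they were ALDH6A1, JUND, S100A2, CCNDBP1 and IKBKE, at distances of 0.08 to 0.12, where the median gene was at 0.64. JUND, an AP-1 subunit, stood at 1576 scaled counts in siSET, 1694 in siCIP2A, 1998 in siNT, 1238 in OP449 and 1917 in PBS. For ANKRD1 they were MIR1915HG, DBP, SOX9, CRYL1 and LDLRAD2, at distances of 0.14 to 0.37, with the median gene at 0.97. For AXL they were NDUFA12, AP2A2, ARFGAP2, IFITM2 and MBTPS1, at 0.03 to 0.05, with the median gene at 0.38. With 5 libraries many genes lie close by, and nothing about function follows from it.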

How the data were processed

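RNA was reverse transcribed with oligo-dT and sequenced on an Illumina GAII, per the labels' protocols. The submitters' processing notes name hg19, CASAVA and Bowtie 1.0.0 without roles. For the counter, its use of strand and the scaling, the sources used here give nothing, so overlapping genes could share reads. The authors deposited a signal per RefSeq transcript, already scaled between libraries. Dividing by each library's smallest nonzero entry gave whole reads for 100% of entries, within 0.001 reads. A count of 0 allows up to 3 reads.

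The 16383 transcript rows were merged by current symbol, 15739 of them through their accession (GRCh38.p14, used for names and promoters only), and the row with the highest mean stood for each gene. Folds are on the log2(value + 1) scale, so those of low genes are understated. A gene was compared where its 2 libraries averaged 50 or more, and a fold of 2 was called. The 95% intervals are exact Clopper-Pearson or Poisson intervals. They cover counting error only and compare libraries, not conditions. An exact binomial test with Benjamini-Hochberg adjustment at 0.05 was an alternative. Folds and intervals were tested on simulated data that held counting error only. That test does not cover differences between cultures or library preparations. Per-kilobase levels use GENCODE transcript lengths, and oligo-dT priming may favour 3′ ends.

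All 8 genes were named, and per list the 6 genes past the floor with the largest log2 fold in any comparison. Further listed genes were named where a statement turned on them. The genes and lists were chosen with earlier results of these data known. Python 3.11.15, numpy 2.4.6, pandas 2.3.3 and scipy 1.17.1 were used.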

Additional observations from a re-analysis of the deposited data

How the results depend on the processing

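With PBS in place of siNT as control of the siRNA libraries, the median log2 fold of the 8 genes was 0.0111 for siSET and -0.0195 for siCIP2A, and 6 of 16 single folds changed sign, 4 of which (YAP1 and ANKRD1 in siSET, ANKRD1 and AXL in siCIP2A) had an interval against siNT that excluded 0. The siSET count of genes past 2-fold was then 40. A pseudocount of 10, 3 rescalings and the lowest transcript row left each of 32 single folds within its counting interval, and 1 changed sign (TEAD1 for OP449, under equal totals). With that pseudocount 15 genes were past 2-fold for siNT against PBS. For siSET, siCIP2A, OP449 and siNT in turn, genes past the fold numbered 115, 111, 71 and 51 at a floor of 20, 32, 27, 14 and 6 at a floor of 200, and 950, 877, 779 and 810 with no floor. At a fold of 1.5 they numbered 435, 373, 230 and 185, with 1 of the 8 genes (TEAD1) in siSET. The binomial test of reads, which compares libraries only, called 1825, 2055, 1654 and 1603 genes, among them 6, 6, 5 and 5 of the 8. ANKRD1 in OP449 was the 1 gene of the 8 past 2-fold at each floor, pseudocount, scaling and transcript row tried. No paired analysis was possible because each group is 1 library.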

Other observations

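Genes of cell polarity and of proteins that bind YAP lay on both sides of the control in each comparison. Of 24 listed, 17 were in the table and 15 passed the floor. In siSET 8 were above siNT and 7 below, and in siCIP2A 5 and 10. In OP449 6 were above PBS and 9 below, and in siNT 6 and 9. The whole interval lay above siNT for 3 and below for 2 in siSET, and for 3 and 4 in siCIP2A. In OP449 it lay above PBS for 3 and below for 7, and in siNT for 3 and 2. Over all genes compared, the whole interval lay above PBS for 19.3% and below for 16.9% in OP449. Those shares were 19.8% and 19.8% in siSET, 21.3% and 20.2% in siCIP2A, and 17.7% and 17.7% in siNT, each against its own control. Folds lay above 0 for 52.1%, 52.7%, 53.7% and 49% of all genes in turn. TP53BP2, which encodes a protein that binds YAP and p53, stood at 587 scaled counts in siSET against 968 in siNT and 918 in PBS, a log2 fold of -0.72 [-0.91 to -0.54] against siNT. In siCIP2A it stood at 1243, at 0.36 [0.23 to 0.49]. The polarity scaffold gene PATJ was below siNT in both, at -0.61 [-0.92 to -0.31] and -0.62 [-0.89 to -0.36], but its intervals against PBS held 0. PARD3, another polarity scaffold gene, was above siNT in both, at 0.25 [0.06 to 0.44] and 0.36 [0.19 to 0.53]. Against PBS PARD3 was at 0.12 [-0.07 to 0.30] in siSET, which holds 0, and at 0.23 [0.07 to 0.39] in siCIP2A. In OP449 the polarity gene LLGL1 was at -0.31 [-0.45 to -0.17] and WTIP, whose protein binds LATS kinases, at -0.39 [-0.77 to -0.01].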
